A study of Mus musculus with 6 samples.

Results

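The proteins of the large ribosomal subunit were followed at the level of their messenger RNA in the mouse retina. Members were the gene models whose symbol begins with Rpl followed by a number (with an optional letter and digit) or is Rplp0, Rplp1 or Rplp2, and which the deposited annotation calls protein-coding. This rule took 52 of 25124 gene models. Poly-A RNA of whole retinas from C57BL/6J mice aged 4 months was sequenced in 6 libraries. The 3 wild-type libraries are named WT1A, WT2A and WT2B. The 3 libraries of mice with the Elovl2(C234W) genotype, a substitution in an elongase of polyunsaturated fatty acids, are named FS3A, FS3B and FS5A; the prefix FS is not explained by the labels, and these columns were assigned to C234W because the table's header names 3 directories of each genotype. The direction of every difference rests on that assignment. The labels do not say whether the substitution is carried on both alleles or whether each library is a separate animal, so a p-value here covers the spread among libraries, which may be technical.

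The large subunit holds the peptidyl transferase centre, where amino acids are joined, and the tunnel through which the new chain leaves. Its proteins bind the large ribosomal RNAs, stabilise their fold and form contact sites for translation factors and chaperones. Each protein except the acidic stalk proteins is present once per ribosome. Genes of ribosomal proteins are expressed in nearly all cells and their messages belong to the class with a terminal oligopyrimidine tract, a run of C and T at the start of the message through which growth signals set translation. Photoreceptors make large amounts of protein because their outer segments are renewed throughout life.

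The start regions were searched for pyrimidine runs. Of the 52 members, 40 were found by symbol in the RefSeq promoter table (build GRCm38.p6, the assembly of mm10), which covers 300 bases around each annotated start. A run of at least 8 pyrimidines between 30 bases before and 50 bases after a start was present in 33 of these 40 genes (82.5%), in 27.7% of 754 other protein-coding genes of like transcript length and in 32.3% of all 27025 genes of the table. The windows printed here come from 6 members that passed the test described further on and from Rpl26 and Rpl10, whose levels differed little between genotypes. Only genes with a run are printed. No such run was found in Rpl23, which also passed and had the most negative log2 fold change. Each is 30 bases long and read on the transcribed strand from 5′ to 3′, with the pyrimidine run in capitals. Counted from the annotated start, the run began at -14 in Rpl7a, -7 in Rpl35 and -5 in Rplp2, but at 21 in Rpl26, 23 in Rpl37a, 29 in Rpl9 and 40 in Rpl10. In Rpl35a it began at -5 or 24, depending on which annotated start is used. From another annotated start of Rpl35a, where the counted gene model begins, no run was found. The search does not show that a run is the first part of the message.
Rplp2, chr7:141447636-141447665, plus strand: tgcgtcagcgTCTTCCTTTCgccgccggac
Rpl35, chr2:39005115-39005144, minus strand: gccccgCCCTTTCCTCTTTCTCTCgaacca
Rpl35a, chr16:33056468-33056497, plus strand: cggggcttgCCTTCCTCTTTCCgccatctt
Rpl37a, chr1:72711274-72711303, plus strand: cgcattgcgTCCCTTCCTCTTCggacttgg
Rpl7a, chr2:26910788-26910817, plus strand: cacaaTTCCCTCTTCTTTCTTTCTCCagca
Rpl9, chr5:65391383-65391412, minus strand: acgaaagacgTTCTCTCTTTgccccatcta
Rpl26, chr11:68901579-68901608, plus strand: gcgtgtagTTCTCTTTCCTTTTgcggccat
Rpl10, chrX:74270836-74270865, plus strand: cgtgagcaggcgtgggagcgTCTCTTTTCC
The run was present in 24 of 29 members whose genotype groups did not overlap and in 7 of 8 whose groups overlapped. On either strand of the whole 300-base region, CTTTCC, which can lie inside such a run, was found in 60% of members, 31.2% of the like-length genes and 29.3% of all genes. CCGGAAG, the core bound by ETS factors, was found in 37.5%, 21.1% and 9.93%, and AAGATGG, the core bound by YY1, in 12.5%, 8.75% and 7.28%. These matches describe the letters of the regions and are not binding data.

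Members were expressed over a wide range. Levels are given as CPM, counts relative to library size after TMM scaling, and are divided by transcript length in kilobases wherever genes are compared with each other. Of the 52 members, 49 passed the filter on low counts and were tested. Their wild-type levels ran from 4.13 CPM per kilobase for Rpl32l to 1584 for Rplp1, with a median of 71.1. Rplp1, a protein of the stalk, stood first (1584 ± 51.2 CPM per kilobase in wild type, SD, n = 3). Rpl8, which lies close to the peptidyl transferase centre, followed at 1102 ± 159, then Rpl13a at 792 ± 50.8 and Rpl4 at 708 ± 82.8 (SD, n = 3 each). The spreads of Rpl13a and Rpl4 overlapped, as did those of Rpl4 and Rpl7 (627 ± 79.6). Within each wild-type library, however, Rpl13a stood above Rpl4 and Rpl4 above Rpl7. Their levels per kilobase were 733, 615 and 541 in WT1A, 824, 737 and 644 in WT2A, and 818, 773 and 697 in WT2B. In FS3B, Rpl4 stood above Rpl13a (381 and 304). The order was not tested. At the low end, Rpl24, Rpl23a, Rpl17 and Rpl28 lay between 4.34 and 5.85 CPM per kilobase, although each is part of every ribosome. Rpl4, Rpl8 and Rpl13a together held 37.6% of the counts of all members.

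**Figure D1:**
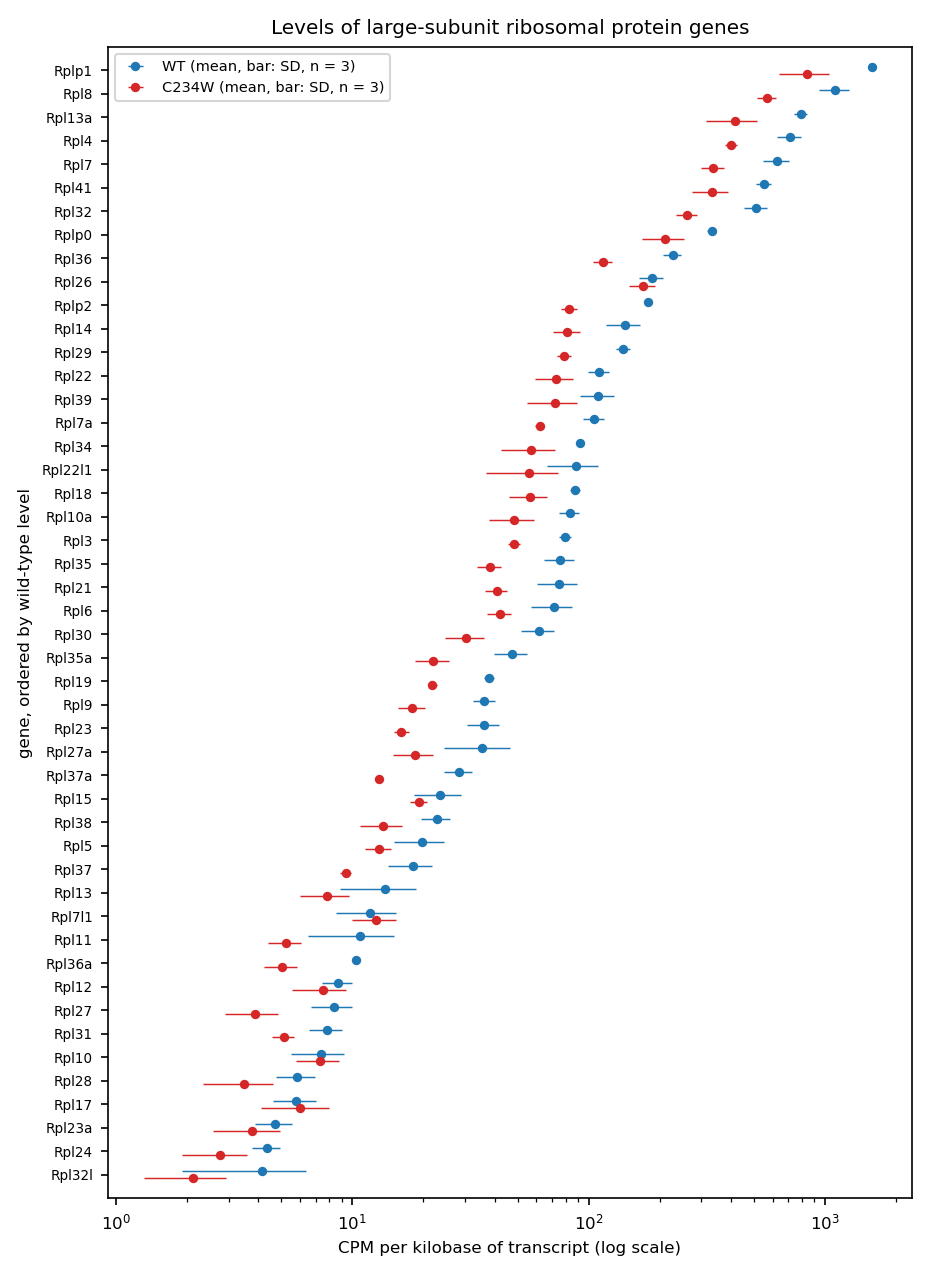
Level of 48 of the 49 tested members (1 is not plotted) in CPM per kilobase of transcript on a log scale, ordered by wild-type level; points are means and bars SD over 3 libraries of each genotype. The wild-type levels run from 4.13 for Rpl32l to 1584 for Rplp1, and the C234W point lies to the left of the wild-type point for nearly every gene.

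The part of shared sequence in these levels was not tested. Only uniquely mapped tags were counted, and ribosomal protein genes have many processed copies in the genome. For 51 members a GENCODE transcript (release M21, the same assembly) was divided into all windows of 100 bases, and each window was looked up in the transcripts of other genes, annotated pseudogenes included. Rpl8 shared 1.73% of its windows and Rpl4 5.14%, with 1 other gene each. Rpl10 shared 91.6% with 10 other genes, Rpl23a 80% with 7 and Rpl17 77.1% with 16. Other members went the other way. Rpl7a shared 73.5% at 105.5 CPM per kilobase and Rpl3 79.4% at 79.6. Rpl28 shared 31.3% at 5.85, but its GENCODE transcript has 1106 bases and its counted gene model 489. The lengths also differed for Rpl12 (1242 and 629 bases), Rplp2 (964 and 450) and Rpl35 (946 and 446). The shared percentages therefore describe the GENCODE transcripts, which can hold sequence outside the counted model. Over 48 tested members the shared percentage and the wild-type level per kilobase had a Pearson r of -0.54 and a Spearman rho of -0.53; the members share the 6 libraries, the length of the reads was not known, and the relation is a description. The shared percentage and the log2 fold change had r of 0.16 and rho of 0.09. With windows of 50 bases, r was -0.31 for the level and 0.10 for the fold change. The median level was then 75.4 CPM per kilobase in members sharing under 50% and 75.3 in those sharing 50 to 90%.

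**Figure D2:**
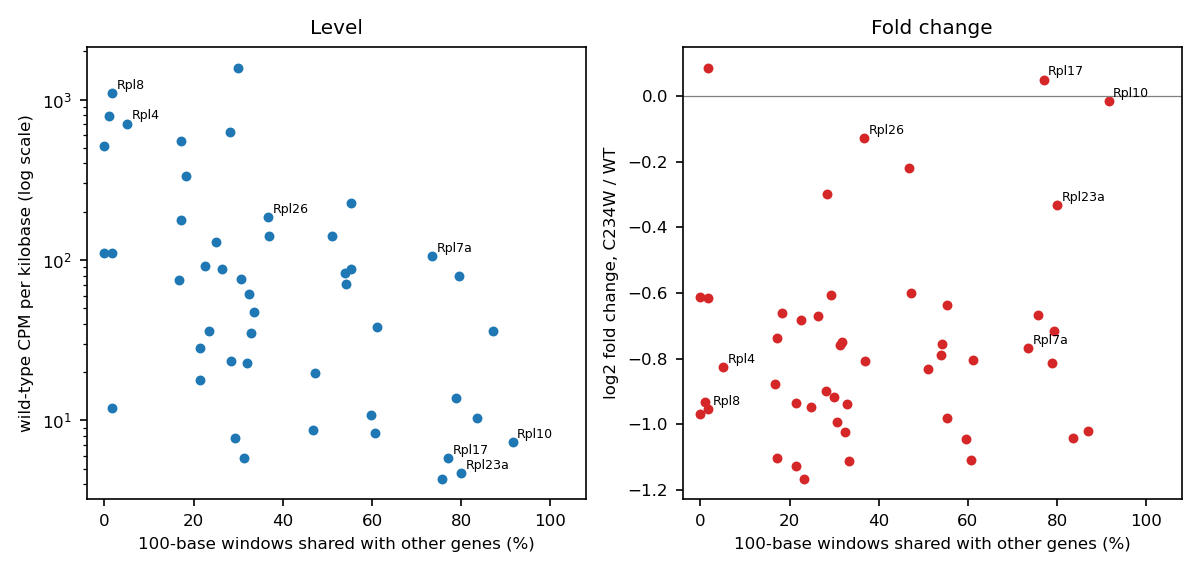
Share of each member's 100-base transcript windows found in transcripts of other genes, against the wild-type level in CPM per kilobase on a log scale (left) and against the log2 fold change (right); each point is 1 of 48 tested members. Rpl10, with 91.6% of windows shared, is among the lowest in level, and fold changes near -1 occur among members with few and with many shared windows.

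Nearly all members had lower levels in C234W retinas. The log2 fold change, C234W relative to wild type, was negative for 47 of 49 tested members, with a median of -0.81 and quartiles of -0.97 and -0.66. Over all 14685 genes tested, 48% were negative and the median was 0.02. In 39 of 49 members every C234W library lay below every wild-type library, against 16.4% of all tested genes, and no member had its groups apart in the other direction. By the edgeR quasi-likelihood test, 14 members fell and 0 rose at a Benjamini-Hochberg adjusted p under 0.05, where 1.28% of all tested genes were called lower and 0.184% higher. At an unadjusted p under 0.05, 39 members were lower and 0 higher, where 13.5% of all genes were lower. DESeq2 called 34 members lower and 0 higher, where 7.24% of all genes were lower.

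The calls lay close to the threshold. The 14 adjusted p-values were between 0.0484 and 0.0495, another 8 members lay under 0.06, and 0 members passed in edgeR when any 1 library other than WT1A was left out. At an unadjusted p under 0.05, 33 members were lower without WT2A (9.14% of all genes) and 33 without WT2B (8.63%). The number was 37 without FS3A (9.45%), 35 without FS3B (12.3%) and 40 without FS5A (11.6%). Without WT1A, 34 members fell, where 9.39% of all genes were called lower, and 41 were lower at an unadjusted p under 0.05, where 17% of all genes were. With WT2A summed with WT2B and FS3A with FS3B, which share a number in their names, and which leaves 2 samples of each genotype, 0 passed and 34 were lower at an unadjusted p under 0.05, where 6.72% of all genes were.

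The pattern over libraries was shared by most members. Summed over all members, the level was 6403 CPM in WT1A, 7419 in WT2A and 7686 in WT2B, against 4515 in FS3A, 3452 in FS3B and 4136 in FS5A. The sum in C234W was thus 56.3% of that in wild type (7169 ± 677 and 4034 ± 539 CPM, SD, n = 3 each). WT1A was the lowest wild-type library for 47 of 49 members, and FS3B the lowest of all libraries for 42. Since tissue was sequenced in bulk, fewer cells with high expression and less RNA per cell cannot be told apart.

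**Figure D3:**
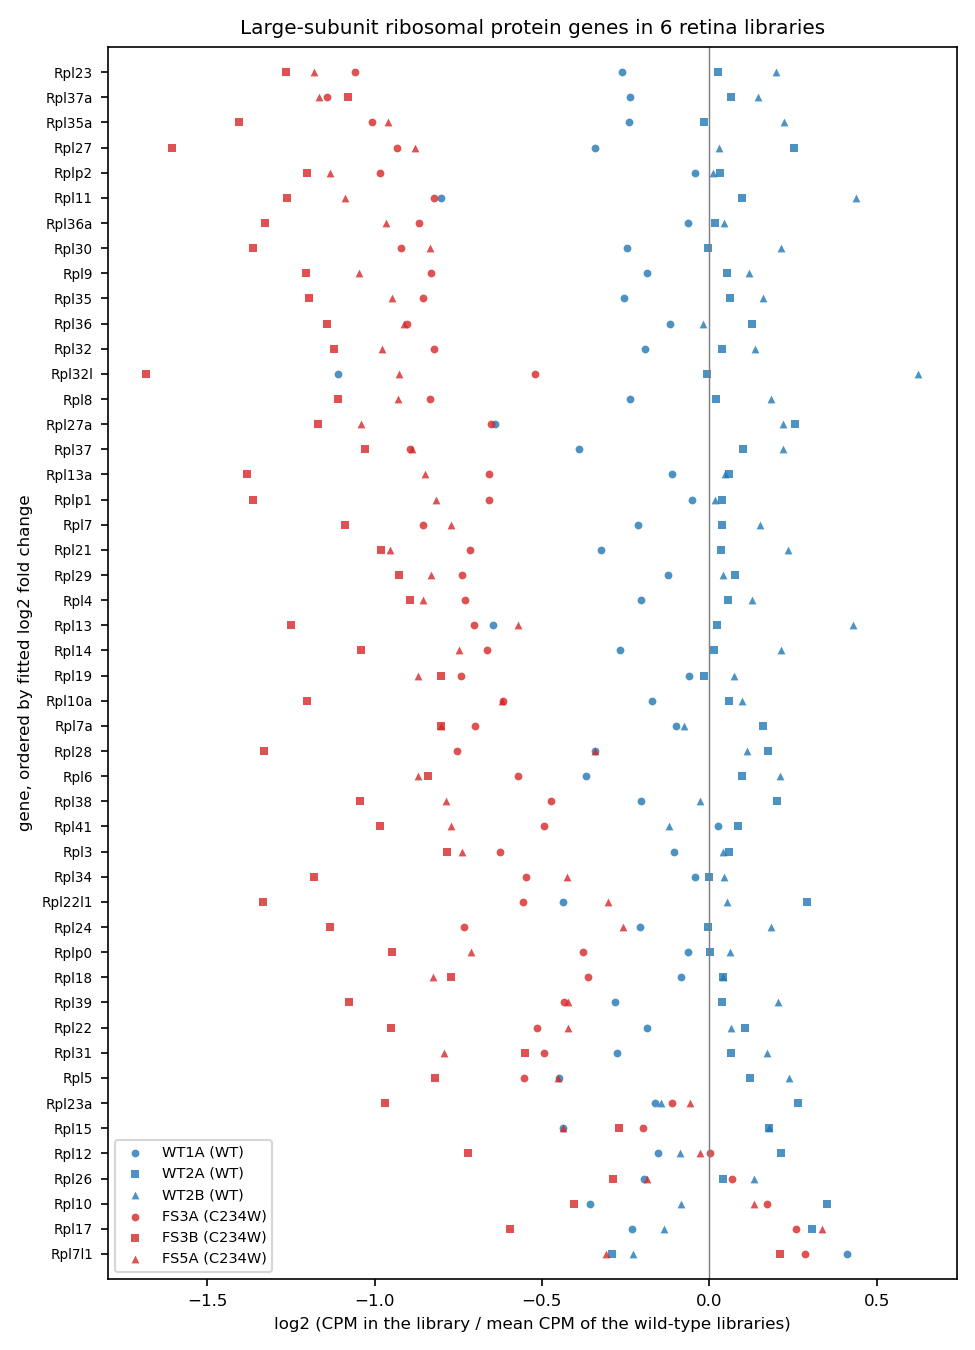
Level of 48 of the 49 tested members (1 is not plotted) in each of the 6 libraries as log2 of its CPM over the wild-type mean; genes are ordered by fitted log2 fold change, the most negative at the top, with blue for wild type and red for C234W. In most genes all red points lie left of all blue ones, WT1A is mostly the leftmost blue point, and the genotypes mix in the last rows, among them Rpl7l1, Rpl17, Rpl10, Rpl26 and Rpl12.

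The stalk is the arm of the subunit that recruits translation factors, and 1 of its 4 members here, Rplp2, fell. Among all tested members 14 of 49 fell, and 1.28% of all tested genes were called lower. Rplp2, an acidic stalk protein that pairs with Rplp1, stood at 77.7 CPM in WT1A, 81.9 in WT2A and 80.7 in WT2B, and at 40.5 in FS3A, 34.8 in FS3B and 36.5 in FS5A; values of later genes follow this order. The groups were far apart and tight, and Rplp2 had the smallest p of all members. C234W libraries held 46.5% of the wild-type level, and Rplp2 fell by 1.10 on the log2 scale (SE 0.143, adjusted p = 0.0484, edgeR). Rplp1 stood at 707, 752 and 741 CPM in wild type and at 465, 285 and 416 CPM in C234W, without overlap; FS3B was well below the other C234W libraries. Its log2 fold change was -0.92 (SE 0.201, adjusted p = 0.056, edgeR). Rplp0, which anchors both to the ribosome, stood at 429, 449 and 468 CPM against 345, 233 and 274 CPM, also without overlap (-0.66, SE 0.179, adjusted p = 0.0761, edgeR). Rpl12, at the base of the stalk, stood at 4.91, 6.35 and 5.15 CPM against 5.47, 3.32 and 5.37 CPM. Its groups overlapped, and the log2 fold change of -0.22 (SE 0.294) was smaller than its error.

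Around the peptidyl transferase centre and the tunnel wall, 2 of 4 members fell, beside 14 of all 49 tested members and 1.28% of all tested genes. Rpl8 stood at 799, 954 and 1070 CPM in wild type and at 528, 436 and 494 CPM in C234W. Rpl8 fell by 0.95 on the log2 scale (SE 0.176, adjusted p = 0.0484, edgeR). Rpl3, which reaches towards the centre, stood at 99.8, 112 and 110.5 CPM against 69.5, 62.3 and 64.4 CPM and fell by 0.71 (SE 0.138, adjusted p = 0.0495, edgeR). Rpl4, which lines the tunnel, was the member with the most counts and stood at 867, 1039 and 1090 CPM against 602, 538 and 553 CPM. Its groups did not overlap, and its log2 difference of -0.82 (SE 0.165) narrowly missed the threshold (adjusted p = 0.0504, edgeR). Rpl10, which joins the subunit late in assembly, stood at 4.52, 7.37 and 5.44 CPM against 6.51, 4.36 and 6.34 CPM, with groups that overlapped fully and a log2 fold change of -0.01 (SE 0.294).

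Of 7 members at the rim of the tunnel exit, Rpl35 fell, and 6 did not pass. The share was 14 of 49 over all tested members and 1.28% over all tested genes. Rpl35, a docking site for factors that meet the nascent chain, stood at 28.4, 35.4 and 37.9 CPM in wild type and at 18.7, 14.8 and 17.6 CPM in C234W (log2 fold change -0.99, SE 0.185, adjusted p = 0.0484, edgeR). Rpl19 stood at 27.1, 28 and 29.8 CPM against 16.9, 16.2 and 15.5 CPM, without overlap and just short of the threshold (adjusted p = 0.0501, edgeR). Rpl39 (38.8, 48.4 and 54.4 CPM against 34.9, 22.4 and 35.2 CPM) and Rpl31 (8.04, 10.2 and 11 CPM against 6.9, 6.64 and 5.61 CPM) also had separate groups, with log2 fold changes of -0.61 each. The remaining 3 had groups that overlapped. Rpl26 stood at 86.9, 102 and 109 CPM against 104, 81.4 and 87.4 CPM, a log2 fold change of -0.13 (SE 0.161). Rpl26 was by far the best counted member with so small a difference. Rpl23a stood at 2.33, 3.12 and 2.35 CPM against 2.41, 1.33 and 2.5 CPM, and Rpl17 at 3.79, 5.49 and 4.05 CPM against 5.31, 2.94 and 5.61 CPM. For both, the values of FS3B lay below and those of FS3A and FS5A within or above the wild-type range.

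Rpl5 and Rpl11 form a complex with the 5S RNA, are inserted together into the subunit and, when free, bind the p53 regulator Mdm2. Neither passed, and their groups were separate by a narrow margin. Rpl11 stood at 7.44, 13.9 and 17.6 CPM in wild type, a wide spread with WT1A at the bottom, and at 7.34, 5.41 and 6.1 CPM in C234W (log2 fold change -1.05, SE 0.324, adjusted p = 0.0998, edgeR). Rpl5 stood at 29, 43 and 46.6 CPM against 26.9, 22.4 and 28.9 CPM, again with WT1A next to the C234W libraries (-0.60, SE 0.213, adjusted p = 0.134, edgeR). Among the 9 members mutated in human Diamond-Blackfan anaemia, a failure of red cell production, Rpl35 and Rpl35a fell and 7 of 9 had separate groups. Among all tested members 14 of 49 fell and 39 of 49 had separate groups. Of all tested genes, 1.28% were called lower and 16.4% had groups apart with C234W lower.

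Of the 26 members in none of the named lists, 9 fell, where 14 of all 49 tested members fell and 1.28% of all tested genes were called lower. Among them Rpl23, which also binds Mdm2, had the most negative log2 fold change of the tested members. Rpl23 stood at 31.9, 38.9 and 43.8 CPM in wild type and at 18.3, 15.9 and 16.8 CPM in C234W, and fell by 1.17 (SE 0.178, adjusted p = 0.0484, edgeR). Rpl37a (14, 17.2 and 18.2 CPM against 7.44, 7.78 and 7.32 CPM) fell by 1.13. Rpl35a of the anaemia list (21.3, 24.8 and 29.3 CPM against 12.5, 9.49 and 12.9 CPM) fell by 1.11. Rpl36 and Rpl32 followed Rplp2 and Rpl23 among the smallest p-values. Rpl36 stood at 83.8, 99.1 and 89.6 CPM against 48.6, 41.2 and 48.3 CPM, and fell by 0.98. Rpl32 stood at 223, 261 and 279.8 CPM against 144, 117 and 129 CPM, and fell by 0.97. In each of these 5 genes the lowest wild-type library was well above the highest C234W library. Others that fell were Rpl29, Rpl9, Rpl7 and Rpl7a, with log2 fold changes from -1.02 for Rpl9 to -0.77 for Rpl7a. In all, 9 members had log2 fold changes at or below -1, 33 lay between -1 and -0.5, and 7 lay above -0.5.

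Members with a second or tissue-restricted copy were followed beside that copy. Rpl7l1, a relative of Rpl7 with a role in ribosome assembly, stood at 41.2, 25.3 and 26.4 CPM in wild type and at 37.8, 35.8 and 25 CPM in C234W. Its groups overlapped and its log2 fold change of 0.09 (SE 0.243) was the highest of all members, while Rpl7 fell from 580 ± 73.5 to 311 ± 34.4 CPM (SD, n = 3 each). Rpl22l1 stood at 35.9, 59.4 and 50.3 CPM against 33, 19.3 and 39.4 CPM, with overlap (-0.67, SE 0.284). Its partner Rpl22 stood at 229, 280.2 and 272 CPM against 182, 135 and 194 CPM, without overlap (-0.61, SE 0.181, adjusted p = 0.0913, edgeR). Copies known from muscle and testis were at the limit of detection and were not tested. Rpl3l, the striated muscle form of Rpl3, had 4.5, 6 and 3 counts in wild type and 2, 1.5 and 1 in C234W. The sum of 4 skeletal muscle markers, of which 2 passed the filter, moved the same way. It was 3.77 to 5.45 CPM in wild type and 1.97 to 2.26 CPM in C234W, and the part of muscle in this was not tested. Rpl39l had 0 counts in each wild-type library and 3, 2 and 0 in C234W, and Rpl10l had 0 in all 6. A count of 0 allows up to 3 counts, which is 0.142 to 0.221 CPM depending on the library.

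Several members share their locus with another row of the table. A pseudogene model at the Rpl26 locus held 1308, 1901, 1481.5, 1904, 1716 and 1434.5 counts in the 6 libraries, the same values as Rpl26 itself, so both rows report the same tags. The same held in large part for Rpl34 and the row Rpl34-ps1. Rpl32l lies inside Map7 on the same strand, and whether the 2 rows share tags was not tested. Within 15 members, 21 small nucleolar RNAs lie on the same strand, as is usual for these host genes, and none held more than 20 counts in a library. Copies elsewhere in the genome held more tags than their parents in places. Rplp2-ps1, a pseudogene on chromosome 12, had 2227.5, 3260.5 and 2653.5 counts in wild type and 1695.5, 1627 and 1283.5 in C234W, against 1170, 1521 and 1097 and then 740.5, 733.5 and 599 for Rplp2. Its log2 fold change was -1.06 (adjusted p = 0.0484, edgeR), close to that of Rplp2. Rpl37rt, a copy of Rpl37, had 2678.5 counts in WT1A where Rpl37 had 177.5, and fell by 0.85 (adjusted p = 0.0488, edgeR). Rpl36al and Rpl14-ps1 had log2 fold changes of -0.59 and -0.92 and did not pass.

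The relation of expression to transcript length differed between the genotype groups. For genes of up to 1672 bases, the median of the length trend was 0.092 to 0.14 in the wild-type libraries and -0.16 to -0.051 in C234W on the log2 scale. Members are short, with a median of 766 bases against 3020 over all tested genes. The comparison was therefore set beside other tested protein-coding genes, leaving out symbols that start with Rpl, Rps, Mrpl or Mrps. The 941 such genes with lengths between the members' quartiles, 549 and 1164 bases, had a median length of 926 bases. Their median log2 fold change was -0.42, and 6.48% of them were called lower, against 14 of 49 members. Their groups were apart with C234W lower in 45.5%, against 39 of 49 members. The median of the members was -0.81, and 42 of 49 lay below the median of the like-length genes. When a trend of expression on length was removed from each library, the median was -0.50 for members and -0.09 for the like-length genes. Then 43 of 49 members were negative, where 54.1% of all genes were, and 30 were lower at an unadjusted p under 0.05, where 13.5% of all genes were. At that unadjusted p, 1 member, Rpl26, was higher, as were 1031 of 14685 genes. After that correction 0 members and 0 of all genes passed in edgeR, and the smallest adjusted p of a member was 0.0968. Without WT1A and with the trend removed, an alternative chosen after seeing the data, 20 members fell, where 7.73% of all genes were called lower. With the trend removed, Rpl26 had a log2 fold change of 0.33 (SE 0.137, unadjusted p = 0.0388, adjusted p = 0.221, edgeR).

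**Figure D4:**
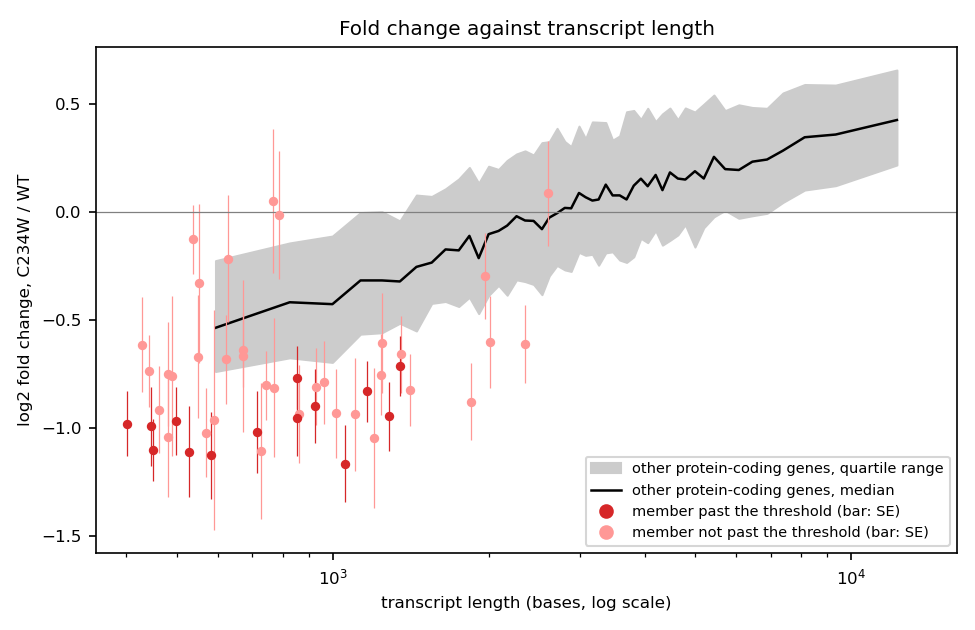
Log2 fold change against transcript length on a log axis: points are the 49 tested members with SE bars, the line is the median and the band the quartile range of other protein-coding genes in length bins. Symbols starting with Rpl, Rps, Mrpl or Mrps are left out of these other genes. The line falls towards short transcripts, to -0.54 in the shortest bin (median length 594 bases). Of 49 members, 42 lie below -0.42, the median of genes with lengths between the members' quartiles.

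Library by library, the median deviation of members from their mean on the log2 scale was 0.24 in WT1A, 0.47 in WT2A and 0.50 in WT2B, against -0.24 in FS3A, -0.63 in FS3B and -0.38 in FS5A. Genes of like length had 0.17, 0.23 and 0.23, then -0.13, -0.22 and -0.26. The small-subunit genes had 0.26, 0.50 and 0.56, then -0.24, -0.68 and -0.40, and thus followed the members in each library.

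**Figure D5:**
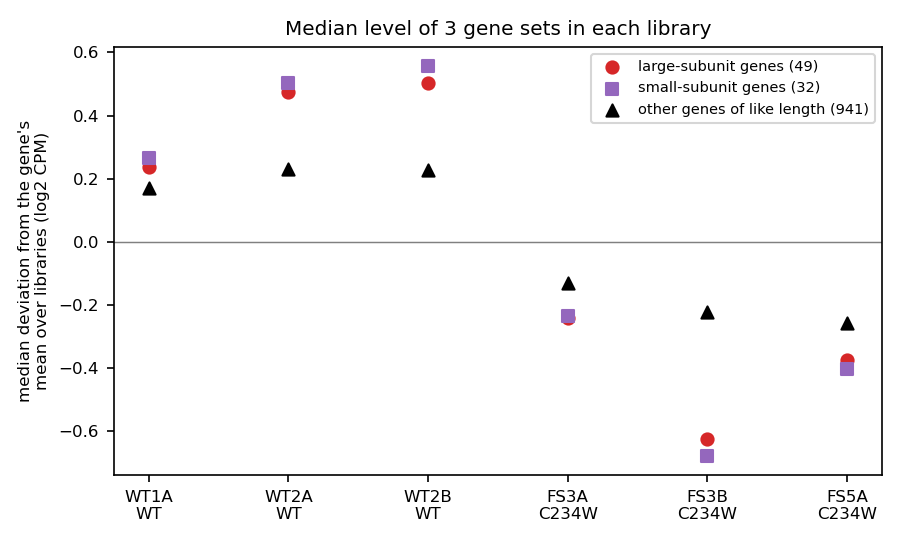
Median deviation from each gene's mean over libraries, in log2 CPM, for 49 large-subunit genes, 32 small-subunit genes and 941 other genes of like length in each library. Members and small-subunit genes nearly coincide in all 6 libraries, and in FS3B they lie at -0.63 and -0.68 while genes of like length lie at -0.22.

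Other parts of the translation machinery gave values to set beside these, without a test of the difference. Over all 14685 tested genes, 1.28% were called lower by edgeR, 7.24% by DESeq2 and 13.5% were lower at an unadjusted p under 0.05. At that unadjusted p, 1750 were higher, and DESeq2 called 691 higher. Of the 941 genes with lengths like the members', 61 were called lower by edgeR, 244 by DESeq2 and 365 were lower at an unadjusted p under 0.05. Of 32 small-subunit ribosomal protein genes, 14 fell, 0 rose and 18 did not pass, with a median log2 fold change of -0.91; Rps16 (10.6 ± 0.518 to 3.2 ± 0.417 CPM; SD, n = 3 each) had the smallest p. Of 49 genes of the mitochondrial large subunit, 0 passed by edgeR (16 lower at an unadjusted p under 0.05, 8 by DESeq2), with a median of -0.28. Factors that build the large subunit gave smaller median differences, and their transcripts were longer. Median lengths were 766 bases for members, 620 for small-subunit genes, 1118 for mitochondrial genes, 2583.5 for assembly factors and 2369 for polymerase I genes. With the length trend removed, the median log2 fold changes were -0.50, -0.53, -0.02, -0.10 and 0.24 in this order. Of 54 assembly and export factors 0 passed, 12 were lower and 2 higher at an unadjusted p under 0.05 (8 and 2 by DESeq2), and the median was -0.10. The smallest p among them belonged to Nop53, needed for late processing of the large-subunit RNA (428 ± 24.1 to 237 ± 50.5 CPM, adjusted p = 0.0543, edgeR), and Nifk, a nucleolar partner of the proliferation antigen Ki-67 (35.2 ± 0.996 to 22.8 ± 1.57 CPM; SD, n = 3 each). RNA polymerase I, which makes the ribosomal RNA precursor, had 0 of 15 genes past the threshold and a median of 0.09 (3 lower and 3 higher at an unadjusted p under 0.05, 1 and 0 by DESeq2); Polr1d and Polr1c, shared with RNA polymerase III, had log2 fold changes of -0.61 and -0.46. Among 11 genes of the nucleolar RNA modification particles 0 passed (3 lower and 1 higher at an unadjusted p under 0.05, 0 and 1 by DESeq2), with a median of -0.37. Nop56, a core protein of these particles, was at 38 ± 3.46 CPM in wild type and 63 ± 7.17 CPM in C234W (SD, n = 3 each, adjusted p = 0.056, edgeR), the opposite direction to the members. Of 4 chaperones of newly made large-subunit proteins 0 passed in edgeR (0 lower and 1 higher at an unadjusted p under 0.05, 0 and 1 by DESeq2). Heatr3, which escorts Rpl5 and Rpl11 into the nucleus, was at 15.6 ± 4.49 CPM in wild type and 25 ± 1.24 CPM in C234W (SD, n = 3 each, adjusted p = 0.114, edgeR).

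Libraries held 14184093 to 19298613 counts in genes, and members made up 0.377 to 0.737% of them. Rod markers summed to 92448 to 145865 CPM in wild type and 62425 to 83169 CPM in C234W, with 8 of 8 markers tested and none called. Elovl2 itself was at 139 ± 3.01 and 96.1 ± 17.9 CPM (SD, n = 3 each, adjusted p = 0.101, edgeR), which does not check the substitution. Of 14685 single genes tested, 2415 had groups apart with C234W lower and 1853 with C234W higher. Summed markers without overlap were lower in C234W for 6 ganglion cell genes (1549 to 1951 CPM in wild type, 1294 to 1538 in C234W) and 5 erythrocyte genes (71.1 to 142 and 37.2 to 49.7 CPM). They were higher for 6 bipolar genes (459 to 570 CPM in wild type, 730 to 784 in C234W) and 4 endothelial genes (28.2 to 39.6 and 53.3 to 62.3 CPM). The sums of rod, skeletal muscle, and ciliary body and iris markers did not overlap either. None of these markers was called, while 1 of 6 cone markers was called lower (summed level 1137 to 1283 CPM in wild type and 872 to 1262 CPM in C234W). Pigment epithelium markers reached 710 CPM in WT1A against 70.3 to 168 elsewhere. The 5 lens markers summed to at most 0.377 CPM in any library, with 1 of them at 0 in all. The part of cell makeup in the members' differences was not tested.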

How the data were processed

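Poly-A RNA went into TruSeq libraries that keep strand, per the labels' protocols. STAR mapped the reads to mm10 and HOMER counted tags with 1 position in exons of 1 isoform per locus, per the series' design text; the submitters' processing notes give STAR as version 2.7.8a. The authors deposited estimated counts in steps of 0.5 that are not normalized, per the file headers; 28.3 to 32.1% of values per library were not whole, and they were rounded. The header gives 19426580 to 26672412 tags per library. The columns carry none of the labels' replicate numbers.

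In edgeR (version 4.0.16 under R 4.3.3), filterByExpr left 14685 genes. After TMM scaling, genotypes were compared with the robust quasi-likelihood fit over all genes, with Benjamini-Hochberg adjustment and a threshold of 0.05. SE is the size of the log2 fold change over the square root of F. Alternatives used other scalings and filters, DESeq2 (1.42.0), limma-voom (limma 3.58.1), left-out or summed libraries and removal of a loess trend (span 0.3) of log2 expression on length. On data simulated for the comparison over 14685 genes, edgeR recovered 43% of 100 genes changed 2-fold and 91% of 100 changed 4-fold, with 8 false calls of 142. The closest pair of libraries, WT2A and WT2B, differed by a chi-square of 9.69 per degree of freedom, more than counting noise, against 62.8 and 71.7 for the other wild-type pairs. Each library was counted as 1 sample, though whether this pair comes from separate animals is not known. Intervals and floors cover counting error only. Per-library values are given for members of the named sites, paralogues and their parents, the 5 smallest and 5 largest p, the 3 largest falls and any positive log2 fold change, and up to 2 genes are named per other list; some genes this rule names are not reported here. Members, lists and tests were chosen with earlier results of these data known.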

Additional observations from a re-analysis of the deposited data

How the results depend on the processing

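No paired analysis was possible because the columns carry none of the labels' replicate numbers. The 14 members called lower became 0 with RLE, upper-quartile or total-count scaling, 0 with the length trend removed and 0 with same-numbered libraries summed. The count was 21 with no filter, 17 with a 1 CPM filter, 16 by limma-voom, 34 by DESeq2 and 20 without WT1A and with the length trend removed, 39 passed at an unadjusted p under 0.05, and the count ran from 0 to 34 when 1 library was left out. The smallest adjusted p of a member was 0.0503 with RLE, 0.0508 with upper-quartile and 0.0513 with total-count scaling. No setting called a member higher. The median log2 fold change of members was -0.50 with the length trend removed and -0.56 when WT1A was also left out. That of like-length genes was -0.24 with total-count scaling, which moved the median of all genes to 0.20, -0.086 with the length trend removed, -0.082 when WT1A was also left out, and -0.20 in the wider length band. Counts over all genes were 0 lower and 0 higher with the 3 other scalings, the summed libraries, the removed trend or without WT2A, WT2B, FS3A or FS3B. They were 2 and 2 without FS5A, 272 and 81 of 19140 genes with no filter, and 199 and 30 of 13992 with a 1 CPM filter. Of 14685 genes they were 205 and 34 by limma-voom and 1063 and 691 by DESeq2. Without WT1A they were 1407 and 1368, and 1158 and 689 when the trend was also removed. Signs changed in members near 0. With the length trend removed, and then also without WT1A, the log2 fold change was 0.21 and 0.17 for Rpl12, 0.33 and 0.28 for Rpl26, 0.35 and 0.23 for Rpl10, and 0.12 and 0.080 for Rpl23a. With total-count scaling it was 0.046 for Rpl26 and 0.15 for Rpl10. Leaving out 1 library gave Rpl10 -0.16 to 0.21; it had 0.21 without WT2A, 0.15 without FS3B and 0.060 with summed libraries. Rpl7l1 had -0.037 without WT2A, -0.013 without WT2B, -0.023 without FS3A and -0.12 with summed libraries. Leaving out 1 library gave Rpl17 -0.11 to 0.30. It had -0.021 by limma-voom, -0.050 without WT1A, -0.011 without WT2B, -0.061 without FS3A and -0.11 without FS5A. The cause of these changes was not tested. Of 10 members under 10 CPM, 0 were called and 5 had separate groups, with a median log2 fold change of -0.64.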
